A study of Mus musculus with 30 samples.

Results

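The genes described here were the zinc finger genes and Kruppel-like factors of a mouse brain cDNA array: all genes with a single symbol beginning with Zfp or Klf and a digit, or with Zscan, Zkscan or Zbtb, with 1 gene of that pattern left out. There were 127 such genes among 7151 genes with a single symbol, read by 159 of 16896 probes, and the mean of a gene's probes was taken as its value. They divided into 104 Zfp genes, 9 Zbtb genes, 6 Zscan and Zkscan genes and 8 Kruppel-like factors. The naming pattern also took in proteins with zinc fingers of other types, such as Zfp36l2, an RNA-binding protein.

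Hippocampus and cerebral cortex of 12 weeks old mice were compared in 10 groups of 3 arrays. The COX-1 line contributed COX-1-/- and COX-1+/+ mice, and the COX-2 line contributed COX-2-/-, COX-2+/- and COX-2+/+ mice. COX-1 and COX-2 are the cyclooxygenases that turn arachidonic acid into prostanoids. Both deletions were present in all cells of the body, on a mixed genetic background, and the heterozygous colony of each line was kept apart, so null mice had their own wild type. Null mice came from null fathers and heterozygous mothers and wild types from wild-type pairs, so they were not littermates, and the breeding of the COX-2+/- mice is not given in the sources used here.

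Most of these proteins are C2H2 zinc finger factors, in which a string of small zinc-holding fingers reads the bases of DNA. Many Zfp proteins carry a KRAB domain, which recruits the co-repressor Trim28 and, through it, the histone methyltransferase Setdb1 and heterochromatin proteins, whereas the BTB domain of Zbtb proteins binds co-repressors of the Ncor family and the SCAN domain of Zscan proteins pairs proteins with each other. Kruppel-like factors share closely related fingers that bind GC-rich and CACCC sequences, and Klf9 is known in hippocampal neurons as a gene that glucocorticoids and thyroid hormone induce.

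Every value is a Z score, the natural log of a spot's intensity expressed in standard deviations from the array mean, so 0 is the average spot of an array and a difference of Z scores is not a fold change. Over the first 8448 rows deposited, 5 of the 6 COX-1 cortex arrays held identical values, and COX-1 cortex values were therefore used only for probes of the other rows, which left 84 of the 127 genes in those comparisons. A feature (a gene, or a probe with no single symbol) was tested with limma where it averaged a Z score above 0 on the arrays compared, and was called at an adjusted p under 0.05 over all tested features. Of the 127 genes, 57 had a mean Z above 0 and 70 did not. Arrays of a group correlated at 0.984 or more over the rows with own values. No probe carried the symbol of either cyclooxygenase gene, so the deletions could not be checked. The methods speak both of 3 mice a group and of arrays run in triplicate, and the labels do not say whether the 3 arrays of a group are separate mice, so p-values measure the spread between arrays, which may be technical. In whole tissue fewer cells of a type and less RNA per cell cannot be told apart.

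Between COX-1-/- and COX-1+/+ hippocampus the test made 1 call among these genes, and that call was lost whenever an array was left out. Of the 56 zinc finger and Kruppel-like genes that passed the filter, 1 was called, beside 0.378% of all 6876 features tested, and 9 (16.1%) had an unadjusted p under 0.05, beside 16.5% of all features. Zfp952, a zinc finger gene of chromosome 17, had Z scores of -0.0781, -0.119 and -0.127 in COX-1-/- hippocampus, against 0.215, 0.0916 and 0.114 in COX-1+/+ hippocampus. All COX-1-/- arrays lay below the array average and all COX-1+/+ arrays above it, without overlap, and the gene passed the filter with a mean Z of 0.0159 only because of its values in COX-1+/+ mice. The difference was -0.248 ± 0.0442 (SE, limma adjusted p = 0.0429), and it was no longer called when any 1 of the 6 arrays was left out (adjusted p up to 0.128, and not above the filter without COX-1+/+ array 1 or 3).

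The level of Zfp952 in the other groups placed the COX-1+/+ hippocampus among the high ones. Its Z scores were -0.11, -0.119 and -0.032 in COX-2-/- hippocampus, 0.0637, 0.152 and 0.143 in COX-2+/- hippocampus, and -0.0438, -0.00131 and -0.0853 in COX-2+/+ hippocampus. COX-2+/- arrays were thus above all COX-2+/+ arrays, by 0.163 ± 0.0442 (limma adjusted p = 0.0668, not called). In that comparison the gene passed the filter, with a mean Z of 0.0381, only through the COX-2+/- arrays. The COX-2+/+ hippocampus was itself lower than the COX-1+/+ hippocampus by a called difference of -0.183 ± 0.0442 (limma adjusted p = 0.0313), a comparison that shares the COX-1+/+ arrays with the one above. Here too the gene passed the filter, with a mean Z of 0.0483, only through the COX-1+/+ arrays, since all COX-2+/+ arrays were below 0. When COX-1+/+ and COX-2+/+ arrays together served as control, the difference of COX-1-/- hippocampus was -0.157, and the gene did not pass the filter. In cortex Zfp952 was between -0.11 and 0.042 on all 15 arrays.

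**Figure D1:**
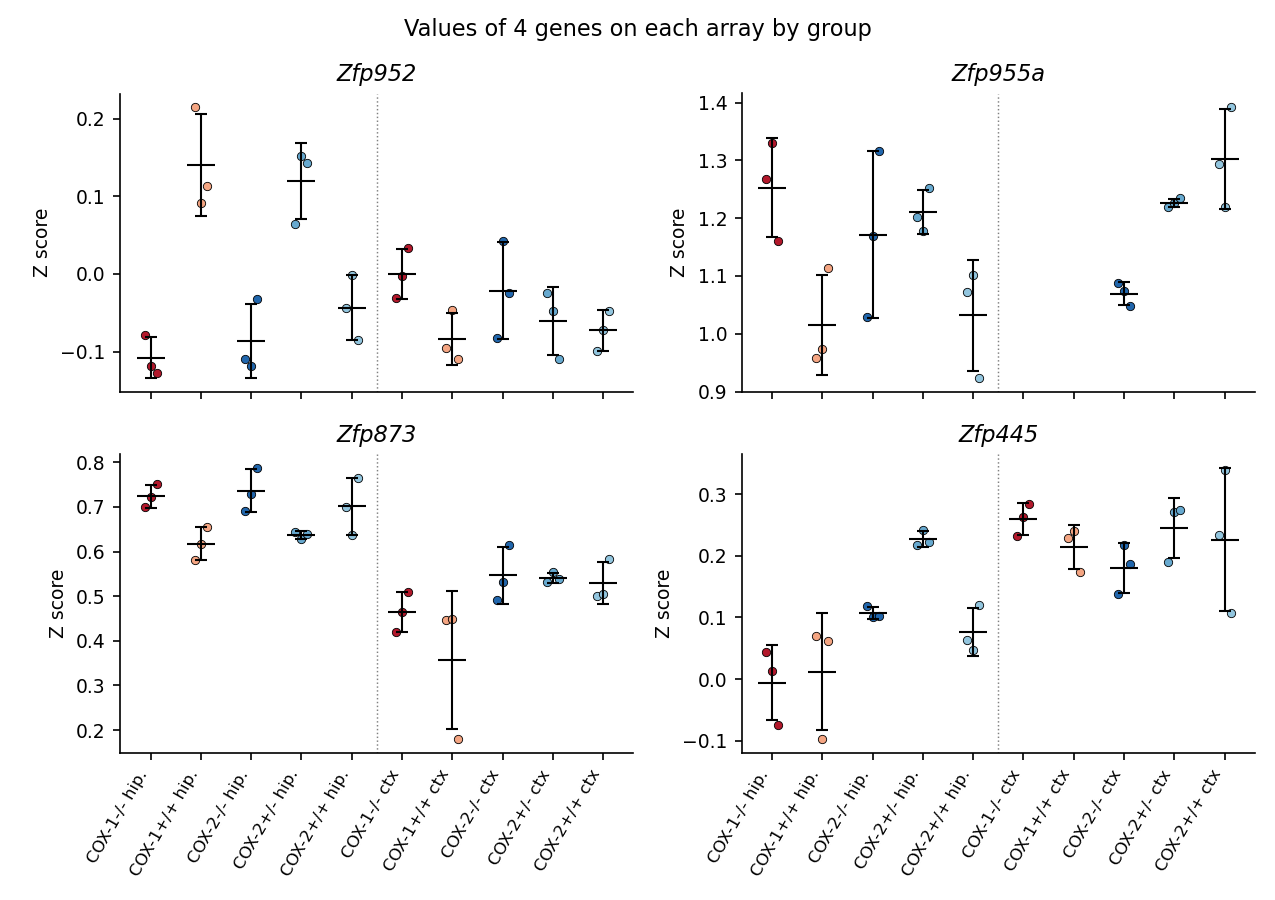
Z scores of Zfp952, Zfp955a, Zfp873 and Zfp445 on each array (points), with the mean and SD of the 3 arrays of a group (bars), hippocampus left of the dotted line and cortex right of it; COX-1 cortex is empty for Zfp955a because its probe lies in the copied rows. Zfp873 lies higher in hippocampus than in cortex in every genotype, whereas Zfp952 stands above 0 on all arrays only in COX-1+/+ and COX-2+/- hippocampus.

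The study's rule for a changed gene, in the reading used here (mean Z above 0, Z test P under 0.05, and a z ratio beyond 1.5 in size), took in more genes than limma. The z ratio was taken as the difference over the SD of all differences, 0.112 in this comparison. The methods word the divisor as the SD of all genes on an array, which Z scoring sets to 1, and with it no tested member would pass, as their differences here were between -0.248 and 0.238. In COX-1-/- hippocampus 5 of the 56 genes met it, 3 higher and 2 lower, beside 4.81% of all features. Besides Zfp952, with a z ratio of -2.22, these were Zfp955a (z ratio 2.13), Zfp809 (2.07), Zfp511 (1.74) and Zfp296 (-1.68).

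Zfp809, which in the mouse recruits Trim28 to integrated retroviruses, had Z scores of 0.965, 1.07 and 1.10 in COX-1-/- hippocampus, against 0.867, 0.796 and 0.778 in COX-1+/+ hippocampus. The groups did not overlap and the difference was 0.231 ± 0.0550 (limma adjusted p = 0.0666, not called). Zfp955a had 1.27, 1.33 and 1.16 in COX-1-/- hippocampus, against 0.958, 0.973 and 1.11 in COX-1+/+ hippocampus, a difference of 0.238 ± 0.0723 (limma adjusted p = 0.125). Zfp511 had 1.57, 1.62 and 1.63 in COX-1-/- hippocampus, against 1.33, 1.37 and 1.54 in COX-1+/+ hippocampus (limma adjusted p = 0.144). Every COX-1-/- array of these 3 genes was above every COX-1+/+ array. The difference of Zfp296 was negative for both of its probes, at -0.328 for the probe with a mean Z below 0 and -0.0469 for the brighter one. Over all 127 genes the groups did not overlap for 25 (19.7%), beside 20.5% of all features. Zfp263 had a mean Z below 0 and overlapped between COX-1-/- hippocampus (-1.61, -1.28 and -1.75) and COX-1+/+ hippocampus (-1.40, -1.47 and -1.34).

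Without COX-2 no zinc finger or Kruppel-like gene was called in the hippocampus. Limma called 0 of the 57 tested genes and 0% of all 6856 features, and an unadjusted p under 0.05 was reached by 3 of the 57 (5.26%), beside 12.2% of all features. The study's rule took in 1 gene, Zfp871, beside 3.75% of all features. Zfp871 had 0.107, 0.0753 and 0.0705 in COX-2-/- hippocampus, against -0.122, -0.00839 and -0.0944 in COX-2+/+ hippocampus (difference 0.159 ± 0.0499, limma adjusted p = 0.30). All COX-2+/+ arrays were below 0, and the gene passed the filter, with a mean Z of 0.00462, only through the COX-2-/- arrays. Its groups did not overlap, and both of its probes were higher in COX-2-/- hippocampus, by 0.227 and 0.0910. Next by p were Zfp292, at -0.125 ± 0.0448 (limma adjusted p = 0.323), and Zfp809, at 0.153 ± 0.0550 (limma adjusted p = 0.323). Zfp809 was thus above its wild type on every null array of both lines in hippocampus, with neither difference called. Over all 127 genes the groups did not overlap for 17 (13.4%), beside 17.5% of all features.

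No member passed the test of a difference between the effects of the deletions in hippocampus. That difference, COX-2-/- minus COX-2+/+ less COX-1-/- minus COX-1+/+, was called for 0 of the 56 genes and 0% of all features, and 3 members had an unadjusted p under 0.05, beside 7.56% of all features. They were Zfp982 (-0.184), Zfp735 (-0.277) and Zfp511 (-0.231), each with a limma adjusted p of 0.586.

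In COX-2+/- hippocampus 0 of the 56 tested genes were called, beside 2.36% of all 6867 features, and 7 had an unadjusted p under 0.05, beside 18.7%. Zfp692 had 0.169, 0.0673 and 0.0414 in COX-2+/- hippocampus, against 0.299, 0.349 and 0.327 in COX-2+/+ hippocampus. Zfp692 was lower on every heterozygous array, with a difference of -0.232 ± 0.0634 (limma adjusted p = 0.0682). Its values of 0.409, 0.262 and 0.134 in COX-2-/- hippocampus overlapped the COX-2+/+ ones, so the mean of the heterozygous group was the lowest of the line. Zfp445, which guards imprinted methylation marks, was higher in COX-2+/- hippocampus by 0.15 ± 0.0473 (limma adjusted p = 0.103), with 0.217, 0.242 and 0.223 in COX-2+/- hippocampus, against 0.064, 0.0465 and 0.121 in COX-2+/+ hippocampus. Those groups did not overlap. The study's rule took in Zfp692, Zbtb6 and Zfp955a, 3 of the 56, beside 6.28% of all features. Groups did not overlap for 24 of the 127 genes (18.9%), beside 30.4% of all features. The hippocampus marker Pou3f1, the 1 tested of 5 measured, was called lower in COX-2+/- hippocampus (difference -0.247, limma adjusted p = 0.0371), and the part of region or cell content in these differences was not tested.

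The wild types of the lines, which carry no deletion, differed in 2 of the 56 genes in hippocampus, beside 5.7% of all 6873 features. These were Zfp952, given above, and Zfp110, a mouse protein that binds the neurotrophin receptor p75. Zfp110 had 0.119, 0.106 and 0.165 in COX-2+/+ hippocampus, against -0.0479, -0.0278 and 0.00758 in COX-1+/+ hippocampus. The groups did not overlap, the difference was 0.152 ± 0.0345 (limma adjusted p = 0.0256), and both of its probes were higher in COX-2+/+ hippocampus, by 0.116 and 0.189. The gene passed the filter, with a mean Z of 0.0536, only through the COX-2+/+ group, since the mean of the COX-1+/+ arrays was below 0. Both calls were lost without any 1 of COX-2+/+ arrays 1, 2 and 3 and COX-1+/+ array 1, that of Zfp110 also without COX-1+/+ array 2 (adjusted p up to 0.0896) and that of Zfp952 also without COX-1+/+ array 3 (adjusted p up to 0.107). Next by p was Zfp982, at 0.157 ± 0.0465 (limma adjusted p = 0.0617). An unadjusted p under 0.05 was reached by 13 of the 56 genes (23.2%), beside 23.4% of all features, and the groups did not overlap for 44 of the 127 genes (34.6%), beside 33.8% of all features. In COX-1-/- hippocampus Zfp110 had 0.119, 0.0847 and 0.122, also above the COX-1+/+ arrays (difference 0.131 ± 0.0345, limma adjusted p = 0.0882), which are shared between these comparisons.

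In cortex no zinc finger or Kruppel-like gene was called in any genotype comparison. For COX-1-/- against COX-1+/+ cortex, 35 of the 84 measured genes passed the filter and 0 were called, beside 0% of all 3766 features, and 7 had an unadjusted p under 0.05, beside 15.2%. Zfp367 had 1.04, 1.08 and 1.19 in COX-1-/- cortex, against 0.979, 0.955 and 0.803 in COX-1+/+ cortex. It was the 1 member that met the study's rule (2.63% of all features), with a z ratio of 1.75 and a difference of 0.193 ± 0.0480 (limma adjusted p = 0.124). Zfp451, a SUMO ligase, had 0.815, 0.871 and 0.894 in COX-1-/- cortex, against 0.783, 0.692 and 0.622 in COX-1+/+ cortex. Its groups did not overlap either, and its z ratio of 1.46 was just inside 1.5 (difference 0.161 ± 0.0437, limma adjusted p = 0.147). Groups did not overlap for 16 of the 84 genes (19%), beside 17.9% of all features.

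For COX-2-/- against COX-2+/+ cortex 0 of 56 tested genes were called (0% of 6843 features), and 4 had an unadjusted p under 0.05, beside 10.7% of all features. The study's rule took in 2, beside 4% of all features. Zfp955a had 1.09, 1.07 and 1.05 in COX-2-/- cortex, against 1.29, 1.22 and 1.39 in COX-2+/+ cortex (z ratio -2.32, difference -0.232 ± 0.0464, limma adjusted p = 0.354). Zfp91, an unusual ubiquitin ligase with zinc fingers, had 1.09, 0.975 and 0.887 in COX-2-/- cortex, against 0.797, 0.808 and 0.696 in COX-2+/+ cortex (z ratio 2.15, difference 0.215 ± 0.0557, limma adjusted p = 0.354). Neither pair of groups overlapped, with Zfp955a lower and Zfp91 higher on every COX-2-/- array. That was so for 12 of the 127 genes (9.45%) in either direction, beside 16.8% of all features.

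For COX-2+/- against COX-2+/+ cortex 0 of 57 tested genes were called (0% of 6849 features), and 5 had an unadjusted p under 0.05, beside 8.86% of all features. Zfp229 was lowest in p, at 0.156 ± 0.0451 (limma adjusted p = 0.434), and Zfp84 met the study's rule with a z ratio of -1.86, beside 3.17% of all features. Groups did not overlap for 19 of the 127 genes (15%), beside 15.9% of all features. Zfp612 was above its wild type in all 3 cortex comparisons, by 0.123 in COX-1-/-, 0.139 in COX-2-/- and 0.120 in COX-2+/- cortex (limma adjusted p = 0.229, 0.354 and 0.464), and the COX-2 comparisons share the COX-2+/+ arrays.

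Between COX-2+/+ and COX-1+/+ cortex 0 of 35 genes were called, beside 1.7% of 3770 features. An unadjusted p under 0.05 was reached by 4 (11.4%), beside 17.2% of all features, led by Zfp354a at 0.164 ± 0.0549 (limma adjusted p = 0.147). Groups did not overlap for 18 of the 84 genes (21.4%), beside 21% of all features. Of 4 measured microglial genes 1, Fcer1g, was called lower in COX-2+/+ cortex (difference -0.573, limma adjusted p = 0.0395), and the part of microglia in these values was not tested.

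**Figure D2:**
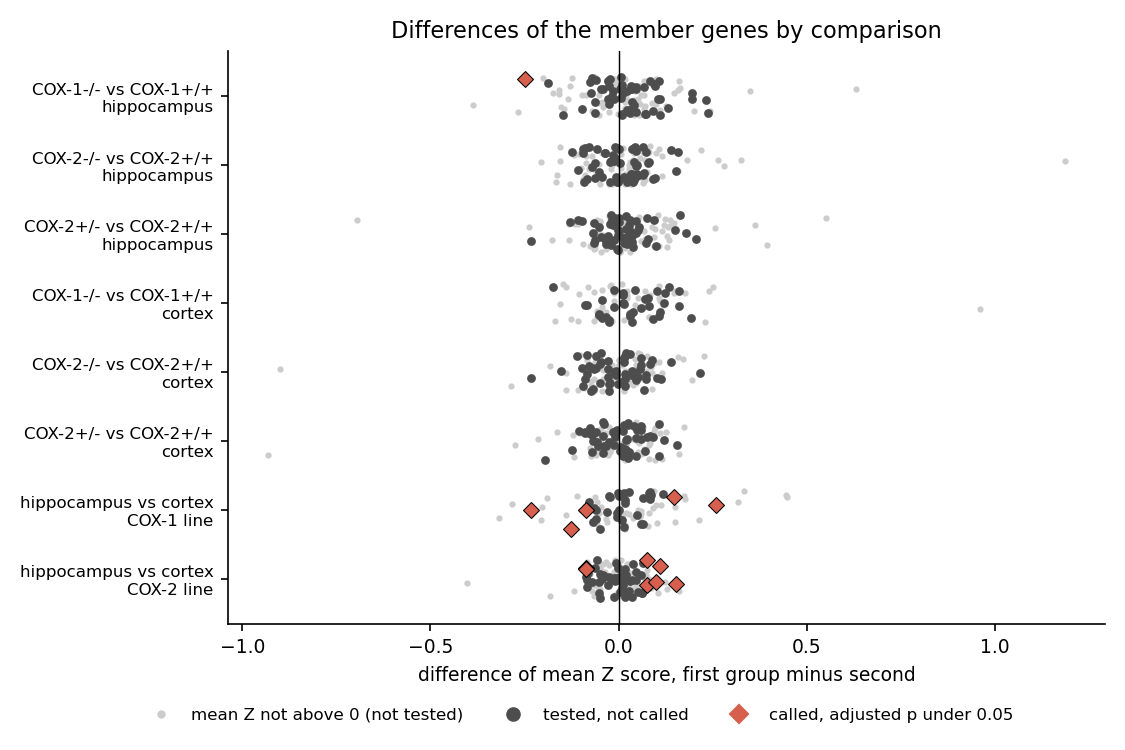
Differences of mean Z score, first group minus second, of the zinc finger and Kruppel-like genes in 8 comparisons, 1 point a gene: light points had a mean Z not above 0 and were not tested, dark points were tested and diamonds were called. Of the 6 genotype comparisons plotted, only that of COX-1-/- with COX-1+/+ hippocampus has a diamond (Zfp952, at -0.248), and the widest points are light ones.

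Genes far below the array average gave the widest differences and were not tested. Zfp945, with a mean Z of -3.49 over COX-2-/- and COX-2+/+ hippocampus, differed between them by 1.19, and Zfp763 differed by -0.696 between COX-2+/- and COX-2+/+ hippocampus, but the groups of both overlapped. Over all 127 genes the median size of a difference was 0.0589 in COX-1-/- hippocampus (0.0621 over all features), 0.0529 in COX-2-/- hippocampus (0.0557) and 0.0506 in COX-2-/- cortex (0.0513).

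The mean of Zfp955a lay above its wild type in hippocampus and below it in cortex of COX-2-/- mice. In hippocampus it had 1.03, 1.17 and 1.32 in COX-2-/- mice, against 1.07, 1.10 and 0.923 in COX-2+/+ mice, where the groups overlapped, and in cortex it was lower in COX-2-/- mice as given above. Hippocampus was below cortex in COX-2+/+ mice (difference -0.270 ± 0.0629, limma adjusted p = 0.0264, in a comparison that called 4.54% of all features), and the hippocampus minus cortex difference was larger in COX-2-/- than in COX-2+/+ mice by 0.372 ± 0.0889 (limma adjusted p = 0.0582). That test of the region by genotype difference called 0 of the 57 members, beside 1.02% of all 6844 features. By limma Zfp955a was called in it after median centring (adjusted p = 0.0440), with no filter (0.0484), with only probes above 0 averaged (0.0280), with an intensity trend (0.0303) and without COX-2-/- hippocampus array 1 (0.0119). Only runs with a call are listed, from all settings tried and 12 runs that each left out 1 array. With probes in place of gene means Zfp955a was not called (limma adjusted p = 0.0538). Next by p in the test as reported were Zfp871 (0.242 ± 0.0623, limma adjusted p = 0.0648) and Zfp91 (-0.309 ± 0.0905, limma adjusted p = 0.0868). In all, 10 members had an unadjusted p under 0.05, beside 21.2% of all features.

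Most calls among these genes were made between the regions. Those comparisons pooled the genotypes of a line and so used more arrays than the comparisons of genotypes. The median size of a member's difference was 0.0415 in the COX-2 line (0.0410 over all features) and 0.0644 in the COX-1 line (0.0780). In the COX-2 line, over its 3 genotypes, 7 of the 57 tested genes were called between hippocampus and cortex, beside 12.9% of all 6845 features, 5 higher in hippocampus (6.43% of all features) and 2 lower (6.47%). An unadjusted p under 0.05 was reached by 16 (28.1%), beside 28% of all features. In the COX-1 line, in other mice and on other arrays, 5 of 34 tested genes were called, beside 30.7% of all 3783 features, 2 higher (13.3%) and 3 lower (17.3%). Before adjustment 9 (26.5%) passed 0.05, beside 41.4% of all features. The only gene called in both lines was Zfp873.

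Zfp873 was higher in hippocampus than in cortex in every genotype. In the COX-2 line its Z scores in hippocampus were 0.692, 0.730 and 0.788 in COX-2-/-, 0.644, 0.628 and 0.639 in COX-2+/- and 0.700, 0.638 and 0.766 in COX-2+/+ mice. In cortex of the same line they were 0.491, 0.533 and 0.615 in COX-2-/-, 0.532, 0.553 and 0.538 in COX-2+/- and 0.502, 0.505 and 0.583 in COX-2+/+ mice. All 9 hippocampus arrays lay above all 9 cortex arrays, which was so for no other member and for 0.605% of all features.

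The difference of Zfp873 was 0.152 ± 0.0242 in the COX-2 line (limma adjusted p = 0.00124). In the COX-1 line its hippocampus values were 0.700, 0.722 and 0.751 in COX-1-/- and 0.582, 0.616 and 0.655 in COX-1+/+ mice, against cortex values of 0.421, 0.465 and 0.508 in COX-1-/- and 0.446, 0.448 and 0.180 in COX-1+/+ mice. Again no cortex array reached the lowest hippocampus array, and the difference was 0.260 ± 0.0451 (limma adjusted p = 0.00134). It remained called without any 1 array in both lines, with a difference of 0.142 to 0.164 in the COX-2 line and of 0.215 to 0.282 in the COX-1 line. By genotype the difference was 0.259 in COX-1-/-, 0.260 in COX-1+/+, 0.190 in COX-2-/-, 0.0960 in COX-2+/- and 0.171 in COX-2+/+ mice, and it did not differ at the threshold between COX-2-/- and COX-2+/+ mice (limma adjusted p = 0.881).

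Zfp445 ran the other way in the COX-1 line. It had 0.0448, 0.0125 and -0.0737 in COX-1-/- and 0.0705, -0.0972 and 0.0624 in COX-1+/+ hippocampus, against 0.232, 0.262 and 0.284 in COX-1-/- and 0.230, 0.241 and 0.174 in COX-1+/+ cortex. Hippocampus and cortex did not overlap, which was so for 10 of the 84 members and 12.7% of all features, and the difference was -0.234 ± 0.0363 (limma adjusted p = 0.000726). In the COX-2 line it was -0.0801 ± 0.0276 (limma adjusted p = 0.0672, not called). There COX-2+/- hippocampus, at 0.217 to 0.242, overlapped COX-2+/- cortex, at 0.190 to 0.274.

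The promoters of Zfp873, Zfp445 and Zfp955a, shown because these genes led the results between regions and for region by genotype, are given here with the binding sequences of the Kruppel-like factors marked. They run from 250 bases before to 50 bases after a RefSeq start, build GRCm38.p6, 5′ to 3′ on the gene's strand, with GC boxes (GGGCGG) and CACCC boxes in capitals on either strand, counted separately, so that a CACCC match and a GC box could share bases.
Zfp873, chr10:82047873-82048172, plus strand: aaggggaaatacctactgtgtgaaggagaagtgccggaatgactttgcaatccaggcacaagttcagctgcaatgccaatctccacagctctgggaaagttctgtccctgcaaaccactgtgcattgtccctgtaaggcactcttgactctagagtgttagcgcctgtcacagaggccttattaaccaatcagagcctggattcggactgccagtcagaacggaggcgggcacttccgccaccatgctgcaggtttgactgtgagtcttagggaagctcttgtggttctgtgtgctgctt
Zfp445, chr9:122865957-122866256, minus strand: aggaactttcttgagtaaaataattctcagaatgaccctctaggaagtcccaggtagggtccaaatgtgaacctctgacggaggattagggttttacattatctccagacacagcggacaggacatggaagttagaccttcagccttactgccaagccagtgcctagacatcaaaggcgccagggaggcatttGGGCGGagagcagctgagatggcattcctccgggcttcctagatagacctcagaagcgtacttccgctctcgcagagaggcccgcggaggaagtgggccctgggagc
Zfp955a, chr17:33255096-33255395, minus strand: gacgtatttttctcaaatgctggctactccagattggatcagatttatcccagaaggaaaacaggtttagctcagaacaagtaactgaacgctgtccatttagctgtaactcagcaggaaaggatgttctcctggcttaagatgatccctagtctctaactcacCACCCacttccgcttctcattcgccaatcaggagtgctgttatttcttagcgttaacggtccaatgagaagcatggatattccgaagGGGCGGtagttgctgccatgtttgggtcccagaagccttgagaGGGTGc
The Zfp445 promoter holds 1 GC box, the Zfp955a promoter 1 GC box and 2 CACCC boxes, and the Zfp873 promoter holds 0 of either. Of the 105 members with a promoter in RefSeq, 59.0% held a GC box, beside 49.2% of protein-coding genes and 38.2% of all genes with a promoter. A CACCC box stood in 57.1% of the members' promoters, beside 61.7% of those of protein-coding genes and 59.8% of all. Of the 126 members found there as protein-coding genes, 13 lay next to another member in 6 runs, among them Zfp952 with Zfp763, Zfp445 with Zkscan7 and Zkscan1 with Zscan21.

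The other calls between regions were smaller, and several depended on single arrays. In the COX-2 line Zfp330, a nucleolar protein, was higher in hippocampus by 0.110 ± 0.0257 (limma adjusted p = 0.0118), with values of 1.16 to 1.32 in hippocampus and 1.01 to 1.20 in cortex. Zfp131, a BTB protein despite its name, was higher by 0.0992 ± 0.0214 (limma adjusted p = 0.00756), with 0.418 to 0.529 in hippocampus and 0.291 to 0.475 in cortex. Both remained called without any 1 of the 18 arrays, and their regions overlapped slightly. Their differences were uneven between genotypes. Zfp330 differed by 0.184 in COX-2-/- and 0.132 in COX-2+/+ mice, both above its mean over the genotypes, so COX-2+/- mice lay below that mean. The probes of Zfp131 differed by 0.0146 and 0.0519 in COX-2-/- and by 0.132 and 0.0214 in COX-2+/+ mice.

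Zfp882 (0.0759), Zbtb46 (0.0759), a factor known from classical dendritic cells, Zfp58 (-0.0858) and Zbtb42 (-0.0873) completed the list, with limma adjusted p of 0.0360 to 0.0436. They lost the call without 11, 13, 13 and 14 of the 18 arrays in turn. In the COX-1 line Zfp33b was higher in hippocampus by 0.147 ± 0.0395 (limma adjusted p = 0.0142) and remained called without any 1 array. Zfp612 (-0.126, limma adjusted p = 0.0323) and Zkscan1 (-0.0869, limma adjusted p = 0.0285) were lower, and lost the call without 7 and 6 of the 12 arrays. Both lost it without COX-1-/- hippocampus array 3, COX-1-/- cortex arrays 1 and 2 and COX-1+/+ cortex array 3. By genotype, COX-1-/- before COX-1+/+, the difference was 0.0963 and 0.198 for Zfp33b, -0.199 and -0.0521 for Zfp612, and -0.0473 and -0.126 for Zkscan1.

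Set side by side over the 84 genes with own values in both lines, the differences had the same sign for 51 members (60.7%), beside 55.6% of all 7782 features. Pearson's r across genes, which are not independent replicates, was 0.158 for the members and 0.118 for all features. Spearman's rho was 0.239 and 0.136. Over those with a mean Z above 0 in both lines the same sign was shared by 21 of 34 members (61.8%), beside 58.6% of 3689 features. There Pearson's r was 0.499 for the members and 0.194 for all features, whereas Spearman's rho, which uses ranks only, was 0.320 and 0.232. Called in both lines were 1 member and 234 of all features, of which 178 had the same sign. Zfp33b was 0.147 in the COX-1 line but 0.0187 in the COX-2 line, and Zfp612 was -0.126 in the COX-1 line but 0.0284 in the COX-2 line. For Zfp131 only the probe of the second part could be compared, with -0.0784 in the COX-1 line and 0.0869 in the COX-2 line.

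**Figure D3:**
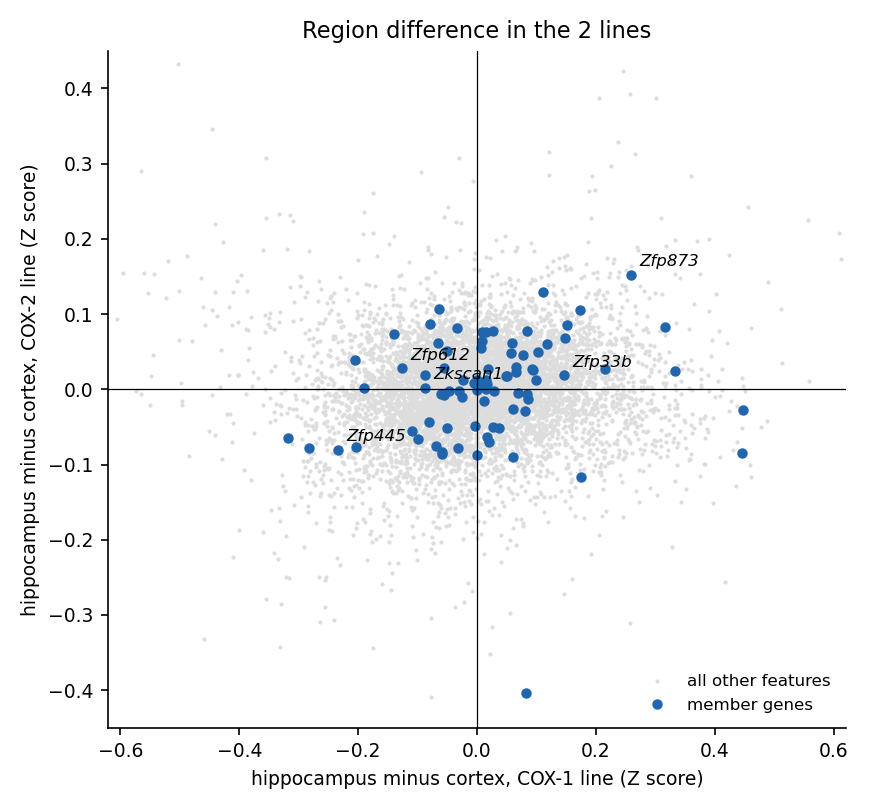
Hippocampus minus cortex difference in Z score in the COX-1 line (x axis) and the COX-2 line (y axis) for the 84 member genes with own values in both lines (blue) and all other features (grey, 22 of them outside the axes). Zfp873 lies at 0.260 and 0.152, and 60.7% of the members lie in the quadrants of equal sign.

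Few region markers had a probe, and their calls could not serve as a check of the labelled regions. Of 16 cortex markers 3 were measured and of 17 hippocampus markers 5, and 0 were called between the regions of the COX-2 line. In the COX-1 line 2 of each were measured, again with 0 called. On the arrays of the COX-2 line the cortex markers averaged a Z score of -0.451 to -0.291 and the hippocampus markers -0.263 to -0.0251. A marker with a mean Z not above 0 was not tested and could not be called, so the lack of calls says little about the regions. Of the 2 choroid plexus markers measured in the COX-2 line, Ttr stood between 0.246 and 2.36 on the 9 hippocampus arrays and between 0.170 and 1.59 on the 9 cortex arrays. Its difference was 0.951 (limma adjusted p = 0.0561), with array 3 of each hippocampus group of that line at 0.402 or lower. In the COX-1 line 3 of 4 measured microglial genes, Fcer1g (-0.574), C1qb (-0.111) and C1qc (-0.0961), were called lower in hippocampus. The neurofilament gene Nefl (0.203), the 1 neuronal marker measured there, was called higher, in a comparison that called 30.7% of all features. Of 4 measured astrocyte genes 1, Aldoc, was called between the regions of the COX-2 line, a comparison that called 12.9% of all features. It was higher in hippocampus by 0.145 (limma adjusted p = 0.00928). Of the 11 oligodendrocyte markers 0 were measured. The part of these cell types in the region differences was not tested.

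No Kruppel-like factor was called in any comparison of genotypes or regions. Klf4, Klf7, an axon growth factor, and Klf17 had a mean Z below 0, and Klf5, Klf6, Klf9, Klf11 and Klf13 were above it. The lowest unadjusted p of a tested factor between genotypes was that of Klf9 in COX-2+/- hippocampus, which had 0.219, 0.317 and 0.134, against 0.311, 0.364 and 0.323 in COX-2+/+ hippocampus. COX-2+/- array 2 lay within the COX-2+/+ range (difference -0.109, limma adjusted p = 0.256).

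Klf13 was also lower in COX-2+/- hippocampus, with 0.116, 0.267 and 0.273, against 0.353, 0.280 and 0.312 in COX-2+/+ hippocampus, where every heterozygous array lay below the wild-type ones (difference -0.0962, limma adjusted p = 0.267). In COX-1-/- hippocampus the differences of the 8 factors were between -0.0624 (Klf9) and 0.110 (Klf11), and in COX-2-/- hippocampus between -0.0786 (Klf5) and 0.0796 (Klf6). The probes of Klf6 disagreed in COX-2-/- hippocampus, with -0.00200 for the one at a mean Z of 2.24 and 0.161 for the one at -0.704. Klf5 was higher in hippocampus than in cortex by 0.118 in the COX-1 line (limma adjusted p = 0.0783) and by 0.0604 in the COX-2 line (limma adjusted p = 0.244), with neither called.

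**Figure D4:**
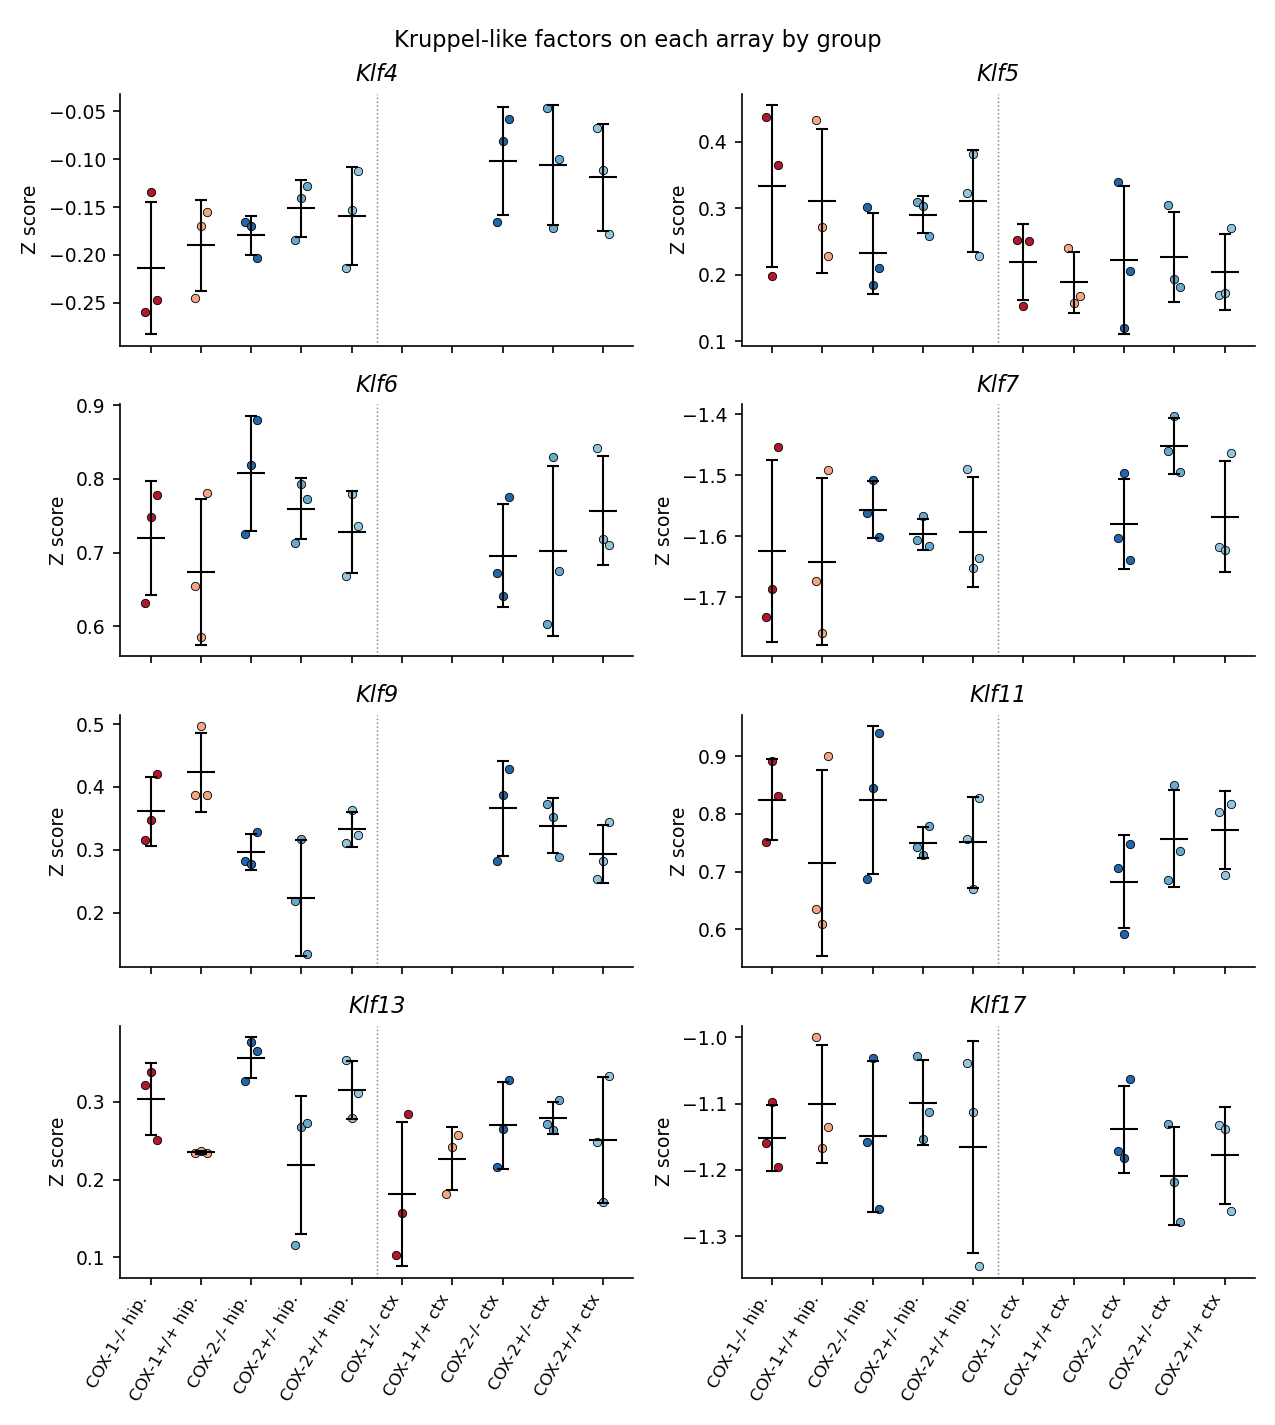
Z scores of the 8 Kruppel-like factors on each array by group, with mean and SD of the 3 arrays (bars), hippocampus left of the dotted line and cortex right of it; COX-1 cortex is filled only for Klf5 and Klf13, since the other 6 genes have a probe in the copied rows. The mean of Klf9 is lowest in COX-2+/- hippocampus, where 1 of the arrays lies within the COX-2+/+ hippocampus values, and the y axes differ between panels.

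Genes read by several probes showed how far single spots can be relied on. Of the 28 such genes, all probes had a difference of the same sign in 14 in COX-1-/- hippocampus, 13 in COX-2-/- hippocampus, 9 in COX-2+/- hippocampus, 13 in COX-2-/- cortex and 19 in COX-2+/- cortex. It was so in 15 between the wild types in hippocampus and in 13 between the regions of the COX-2 line. Zbtb10, with 4 probes, had differences of 0.0821, -0.0180, 0.180 and -0.0816 in COX-1-/- against COX-1+/+ hippocampus, so that its probes disagreed. For Zfp131 both probes were higher in hippocampus of the COX-2 line, by 0.111 and 0.0869, and for Zfp296 the differences were -0.0516 and 0.104.

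The partners of these factors were examined as a list. Of 35 co-regulators of KRAB, BTB and Kruppel-like proteins listed, 25 were measured, and 0 were called in any comparison of genotypes. In hippocampus against cortex of the COX-1 line 3 of the 10 tested (18 measured) were called, beside 30.7% of all features, all higher: Trim28 (0.108), the co-repressor Rcor1 (0.164) and Sap18 of the Sin3 complex (0.171). In the COX-2 line 1 of 14 tested was called, beside 12.9% of all features: Rbbp4, a histone-binding subunit of deacetylase complexes, with a difference of 0.0576. Of 57 other zinc finger factors named outside the pattern 27 were measured. Calls were made for 2 of 9 tested between regions of the COX-2 line (12.9% of all features), 1 of 7 in the COX-1 line (30.7%) and 1 of 10 between wild types in hippocampus (5.7%). Plagl1, an imprinted growth regulator, was called higher in hippocampus of the COX-2 line by 0.110 and in COX-2+/+ against COX-1+/+ hippocampus by 0.133. Rest, the repressor of neuronal genes, was called lower in hippocampus of the COX-2 line (difference -0.120), and Prdm4 was called higher in hippocampus of the COX-1 line by 0.0983. Between a null or heterozygous group and its wild type 0 of them were called.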

How the data were processed

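Total RNA of hippocampus and cerebral cortex was labelled with 33P and hybridised to nylon cDNA arrays, 30 in all. The deposited values are a score: the authors took the natural log of each spot's intensity, subtracted the mean of the array and divided by its SD, with 1 table for all arrays. The table holds 16896 probes in 2 parts of 8448. The parts may each be on their own scale, which the methods do not state. A gene with probes in both parts, such as Zfp131, was averaged over both. Phosphor images were read by the authors with ArrayPro, and the files give no background for single spots. The number of arrays (3 a group) limits precision.

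Probes were named through the platform annotation, which gives 1 symbol for 9663 probes, several for 436 and none for 6797. Genes were fitted as means of their probes, and all other probes singly, with limma 3.58.1 in R 4.3.3 (group means, moderated variances, two-sided). Hippocampus comparisons used the 15 hippocampus arrays, COX-2 cortex comparisons the 9 COX-2 cortex arrays, COX-1 cortex comparisons the second part of the 15 cortex arrays, and region comparisons the arrays of 1 line. P-values were adjusted by Benjamini-Hochberg over all features with mean Z above 0. An exact permutation test of 3 against 3 arrays cannot go below 0.1. The procedure was tested on simulated data.

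Genes named were every Kruppel-like factor, the called members, up to 3 by smallest p where fewer were called, those meeting the study's rule between a null group and its wild type, those listed in the study's supplements (Zfp263 and Zfp451, not independent evidence), and genes whose probes disagree in a named result. Zfp945, Zfp763, Zbtb6, Zbtb10 and Zfp84 were named after their values were seen. Members and lists were chosen with earlier results of these data known. A gene of the pattern is not reported here. Protein sequences were not used here.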

Additional observations from a re-analysis of the deposited data

How the results depend on the processing

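Of 239 counts of called members under other settings, 172 were unchanged or stayed within 1.5 times the reported count. Most comparisons had a reported count of 0, and a 0 that stayed 0 was included. The 172 therefore does not measure how well calls held. None of the differences followed through these settings turned its direction. Those followed were of members listed for a comparison by call, by p, by the study's rule or by the study's supplements. Differences of the Kruppel-like factors and runs with probes in place of gene means were not in that check. By the study's rule the counts were 5, 1 and 3 in COX-1-/-, COX-2-/- and COX-2+/- hippocampus, 1, 2 and 1 in the same order in cortex, 1 between wild types in hippocampus, 1 and 2 between regions of the COX-2 and COX-1 lines, 2 for the difference between deletions and 3 for region by COX-2 genotype. With no filter, where members at or below the array average were tested too, they were 1 in COX-2+/- hippocampus and 14 and 1 between wild types in hippocampus and cortex. They were 11 and 20 between regions of the COX-2 and COX-1 lines, and 1 for region by genotype. With a mean Z above 0.5 they were 0 in COX-1-/- hippocampus and 0 between wild types in hippocampus. With only the brighter probes averaged they were 2, 2 and 6 in COX-1-/-, COX-2+/- and wild-type hippocampus, 11 and 10 between regions, and 2 for region by genotype. With probes in place of gene means they were 4 between wild types in hippocampus and 11 and 8 between regions. With an intensity trend they were 2, 2, 5 and 2 in COX-1-/-, COX-2+/- and wild-type hippocampus and region by genotype. After removal of a running median over neighbouring rows they were 0 in COX-1-/- hippocampus, 1 between wild types in hippocampus and 12 between regions of the COX-2 line, and after median centring 1 for region by genotype. With the wild types of both lines as control they were 0 in COX-1-/- and 1 in COX-2+/- hippocampus. For settings other than the study's rule the share of all features called is not given here, so these counts cannot be set against a general rate. The causes of these changes were not tested.

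Leaving out each array in turn gave 0 to 0 called members in COX-1-/- hippocampus, 0 to 1 between wild types in hippocampus, 3 to 6 between regions in both lines, and 0 to 3 for region by genotype. The labels do not say whether same-numbered arrays are paired, and the tests as reported treated all arrays as separate. In no comparison did all 3 same-numbered arrays correlate above 0.1 in their deviations, a criterion that cannot decide the question. These correlations ran from -0.0685 to 0.211. Between COX-2-/- hippocampus and COX-2-/- cortex they were 0.211, -0.00193 and 0.177. With the replicate block the counts were 0 in COX-1-/- hippocampus, 1 in COX-2+/- hippocampus and 4 between wild types in hippocampus. Kruppel-like factors were called in 8 of 239 such runs, all between regions.

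What limits these results is 3 arrays a group, Z scores that cannot be turned into folds, clones of older design whose identity was not checked, and 70 of the 127 genes at or below the array average, where no test was made.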
